A study of Mus musculus with 16 samples.

Results

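Far from protein-coding genes, H3K27me3 formed 3474 short regions in gene deserts, out of 61441 regions marked in at least 1 of 8 libraries. H3K27me3 was profiled by chromatin immunoprecipitation in CCN6KOT cells, mouse breast tumour cells of a spindle metaplastic type that lack CCN6, a secreted matricellular protein. Every group therefore shares the CCN6 knockout. The 4 dnTCF4 libraries came from cells transduced with a lentivirus for dnTCF4, a dominant negative form of the factor through which beta-catenin acts, and the 4 control libraries from cells with the control lentivirus (PPGS). Both were selected with puromycin and grown in medium with serum. The labels name 1 cell line and do not say whether the numbered libraries came from separate cultures, so p-values reflect differences among libraries that could be purely technical. The comparison asks whether blocking beta-catenin/TCF activity bears on where the mark lies. Peak lists give no expression, so the labelled cell type could not be checked against its markers.

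The 8 peak lists were merged wherever peaks overlapped by at least 1 base. A region was kept when it was shorter than 5 kb and lay 100 kb or more from every RefSeq protein-coding gene body, on the autosomes other than 2, 8, 10, 12, 15 and 17. The 3474 regions kept are called desert regions here. They made up 10.1% of the 34447 short regions on these 13 chromosomes, and the other 30973 lay within 100 kb of a gene. The widest desert regions were 4936 and 4962 bp wide, and the next wider regions were 5055 and 5268 bp. The desert regions nearest to a gene lay 100.002 and 100.024 kb from it, and the farthest short regions just under the limit lay 99.948 and 99.971 kb away.

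H3K27me3 is written by EZH2, the catalytic subunit of Polycomb repressive complex 2, and marks genes that are kept silent. It is best known from broad domains over CpG-rich promoters of developmental regulators, where unmethylated CpG dinucleotides draw in Polycomb proteins. Gene deserts are long stretches without protein-coding genes. Those beside developmental regulators often hold enhancers that act over long distances, while others hold few known elements.

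The sequences of the desert regions themselves are not used here, and those shown are of annotated promoters that the regions touched. RefSeq promoter windows (GRCm38.p6, 250 bases before to 50 bases after a start) of non-coding genes touched desert regions in 22 cases, from 21 genes, out of the 3474 regions. Of these windows, 10 lay wholly inside a region and 12 in part, with a median of 256.5 of 300 bases inside. The 3 in regions marked in at least 3 libraries are printed, as the best replicated examples. Each is the strand of the gene, 5′ to 3′, with CG dinucleotides in capitals. The 1700063O14Rik promoter (chr5:91767251-91767550, minus strand) has 6 CG, and the Gm31753 promoter (chr1:193478553-193478852, plus strand) has 0, and both lie wholly inside their regions. The Gm40330 promoter (chr5:126504926-126505225, minus strand) has 2 CG, and 199 of its bases lie inside the region.
1700063O14Rik: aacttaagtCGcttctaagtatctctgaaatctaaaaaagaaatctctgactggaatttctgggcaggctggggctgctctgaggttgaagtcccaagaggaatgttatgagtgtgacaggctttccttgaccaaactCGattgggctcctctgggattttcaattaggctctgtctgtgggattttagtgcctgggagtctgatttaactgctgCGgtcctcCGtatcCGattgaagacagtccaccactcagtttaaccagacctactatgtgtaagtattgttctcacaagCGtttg
Gm31753: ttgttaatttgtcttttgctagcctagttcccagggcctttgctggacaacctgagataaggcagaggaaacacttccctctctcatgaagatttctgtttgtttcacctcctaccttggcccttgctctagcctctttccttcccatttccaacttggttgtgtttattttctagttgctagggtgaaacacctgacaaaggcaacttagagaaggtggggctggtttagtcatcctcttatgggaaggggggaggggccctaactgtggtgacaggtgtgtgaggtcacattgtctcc
Gm40330: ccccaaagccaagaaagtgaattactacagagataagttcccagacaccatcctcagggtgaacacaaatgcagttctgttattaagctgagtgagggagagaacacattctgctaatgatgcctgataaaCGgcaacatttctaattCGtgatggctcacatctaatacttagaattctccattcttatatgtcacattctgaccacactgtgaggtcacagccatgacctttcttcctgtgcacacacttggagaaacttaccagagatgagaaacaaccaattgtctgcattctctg

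These 3 desert promoters hold few CG dinucleotides for their length, and the same held for the other desert promoters that were touched. The ratio of observed to expected CG had a median of 0.255 over the 22 promoters, with a range of 0 to 0.497, and the median GC content was 41.8%. No promoter reached a ratio of 0.6, a usual limit for a CpG island. Of the 1345 desert promoters of non-coding genes outside the marked regions, 51 (3.79%) reached it. Among promoters that touched short regions near genes, 9 of 174 non-coding (5.17%) and 18 of 201 protein-coding promoters (8.96%) reached it. Over all 13975 protein-coding promoter windows the share was 48.2%, with a median ratio of 0.574. Median ratios were 0.186 in the 1345 desert promoters, and 0.223 and 0.210 in the 174 and 201 promoters near genes. These medians lay below the 0.255 of the 22 touched desert promoters. With 22 windows, shares of a few percent cannot be compared. Low CG content was therefore shared by promoter windows that touched desert and other short regions, and desert promoters as a whole are CG-poor. The ratios are of whole windows, also where part of a window lay outside the region. The 22 windows are 1.61% of the 1367 non-coding promoter windows that lie in deserts. Other short regions touched 174 (2.77%) of the 6277 non-coding windows within 100 kb of a gene. They touched 201 (1.44%) of the 13975 protein-coding windows. The 6277 windows had a median ratio of 0.260, and 16.3% of them reached 0.6.

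In the 1700063O14Rik region (chr5:91767118-91769284, between Parm1 and Rchy1) the fold enrichment over background, the authors' value for each peak, was 3.72 in dnTCF4 1 and 3.98 in dnTCF4 3, against 3.40 in control 3 and 3.77 in control 4. In the Gm31753 region it was 3.35 in dnTCF4 1, against 3.05 in control 3 and 3.29 in control 4. In the Gm40330 region it was 3.07 in dnTCF4 1, against 2.93 in control 3 and 3.34 in control 4. All 3 regions thus had peaks in both groups, and none had a peak in dnTCF4 2, control 1 or control 2.

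Desert regions were found far more often in some libraries than in others, in both groups. Peaks of dnTCF4 1 fell in 521 desert regions, those of dnTCF4 2 in 0, dnTCF4 3 in 40 and dnTCF4 4 in 28. Peaks of control 1 fell in 2 desert regions, those of control 2 in 5, control 3 in 3126 and control 4 in 627. The groups overlapped, and each held both long and short lists. The lists themselves held 21492, 191, 4885 and 1838 peaks in dnTCF4 1 to 4, and 426, 738, 54070 and 22745 in control 1 to 4. Read depth is unknown, so a region without a peak is not shown to lack the mark. In bulk cells, fewer marked cells and less mark per cell cannot be told apart. The number of desert regions, as log10(number + 1), averaged 1.45 ± 1.12 in dnTCF4 and 1.89 ± 1.49 in control libraries (SD, n = 4 each). The difference of −0.44 was smaller than the spread within groups (two-sided exact permutation test, p = 0.686, adjusted p = 0.734 over 10 tests). It was 0.04 without dnTCF4 2 and 0.10 without control 3, so its sign rested on single libraries.

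Few of each library's short regions lay in deserts, although deserts make up 28.1% of the annotated length of these chromosomes (473.7 of 1687 Mb). This length counts every base from the first to the last annotated gene of a chromosome. It was not corrected for assembly gaps or for sequence where reads cannot be placed. The desert share was 5.14% in dnTCF4 1 (95% Wilson interval 4.73 to 5.59%), 2.68% in dnTCF4 3 (1.97 to 3.62%) and 5.01% in dnTCF4 4 (3.49 to 7.14%). In dnTCF4 2 it was 0 of 46 regions, which allows a share of up to 6.52% (3 counts of the total, not a Wilson limit). It was 2.53% in control 1 (0.697 to 8.77%), 2.69% in control 2 (1.15 to 6.14%), 10.4% in control 3 (10.0 to 10.7%) and 6.43% in control 4 (5.96 to 6.93%). The intervals cover counting error only. All 8 libraries lay well below the desert share of the length. On the log2 scale, observed over expected averaged −2.87 and was above 0 in 0 of 8 libraries. The exact sign-flip test gave p = 0.00781, the smallest that 8 libraries can give, and an adjusted p = 0.0781, above the threshold of 0.05. Per Mb, there were 7.33 desert regions in deserts and 25.5 other short regions outside them. The desert regions covered 2.31 Mb, 0.488% of the desert length. Regions of 5 kb or more were rarer still, with 14 in all deserts.

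The desert share was lower on average in dnTCF4 than in control libraries, by an amount that did not pass the test. It averaged 3.21 ± 2.42% in dnTCF4 and 5.50 ± 3.71% in control libraries (SD, n = 4 each). The difference of −2.30 percentage points had p = 0.343 and an adjusted p = 0.607 in the exact permutation test, whose smallest p is 0.0286. It shrank to −0.549 points without control 3. On the log2 scale, observed over expected averaged −3.25 ± 1.07 in dnTCF4 and −2.50 ± 0.87 in control libraries (SD, n = 4 each), with p = 0.314 and adjusted p = 0.607 for the difference of −0.76 (exact permutation test). With deserts set at 200 kb or more from genes, the share was 1.75, 0, 1.00 and 2.15% in dnTCF4 1 to 4, against 2.53, 2.15, 4.09 and 2.276% in control 1 to 4. The groups then did not overlap, by a narrow margin. Some shares rested on few regions, with 0 of 46 in dnTCF4 2 and 12 of 559 in dnTCF4 4. In control 1 and 2 they were 2 of 79 and 4 of 186. The exact permutation test of the difference of −1.54 points gave its smallest p of 0.0286, with an adjusted p = 0.0952. The desert share of control 3 was higher in its whole list than among its strongest peaks. Where the 5 lists of at least 1000 peaks were each limited to their 1838 strongest peaks, the share was 4.15, 3.31 and 4.48% in dnTCF4 1, 3 and 4, against 4.74 and 4.53% in control 3 and 4. The plot by library sets these values beside the whole lists.

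**Figure D1:**
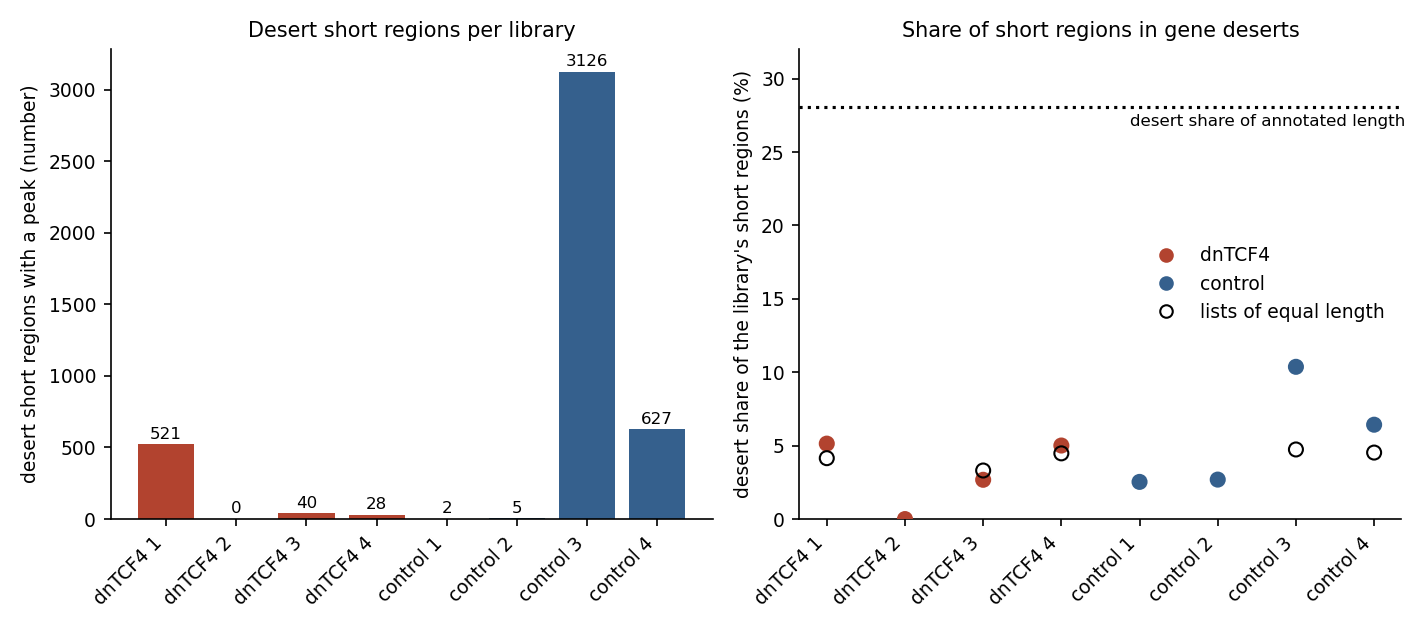
Left, number of desert regions with a peak in each library. Right, desert regions as a percentage of the library's short regions, with filled points for whole lists, open circles for lists of 1838 peaks, and a dotted line at the desert share of annotated length, 28.1%. The 521 regions of dnTCF4 1 and the 3126 of control 3 lead their groups, and all points lie below the line.

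Within the 3 longest lists, the weakest peaks lay in deserts more often than the strongest ones. Short-region peaks of each list were split into 5 equal classes by the authors' −log10 q. In dnTCF4 1, 6.0% of peaks in the weakest class and 4.26% in the strongest lay in desert regions. In control 3 these shares were 13.6% and 7.56%, falling at each step, and in control 4 they were 7.15% and 4.81%. In dnTCF4 3, with 312 peaks in each class, they were 2.56% and 3.21%, so that list did not show the same order. These shares describe peaks within a list and were not tested.

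The height of desert peaks was close to that of other short peaks of the same library. Median fold enrichment in desert regions was 3.45 in dnTCF4 1, 4.13 in dnTCF4 3 and 4.42 in dnTCF4 4, and 4.65 in control 1, 5.07 in control 2, 2.97 in control 3 and 3.38 in control 4. In other short regions it was 3.50, 4.09 and 4.53 in those dnTCF4 libraries, and 4.52, 4.64, 3.01 and 3.40 in control 1 to 4. dnTCF4 2 has no desert region and drops out of this comparison. The difference in log2 fold, desert minus other, averaged 0.01 and was above 0 in 3 of 7 libraries (exact sign-flip test, p = 0.734, adjusted p = 0.734). It averaged −0.01 ± 0.03 in dnTCF4 (SD, n = 3) and 0.03 ± 0.07 in control libraries (SD, n = 4), and the groups differed by −0.05 (exact permutation test, p = 0.371, adjusted p = 0.607).

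Desert peaks were narrower than other short peaks in most libraries, by an amount that did not pass the test. Median peak width in desert regions was 340.5 bp in dnTCF4 1, 257 bp in dnTCF4 3 and 220 bp in dnTCF4 4, and 327, 268, 455.5 and 360 bp in control 1 to 4. Other short peaks had medians of 446, 329.5 and 272 bp in those dnTCF4 libraries, and 230, 276, 574 and 426 bp in control 1 to 4. The desert median was lower in 6 of 7 libraries, and control 1, with 2 desert peaks, was the exception. The difference averaged −46.5 bp (exact sign-flip test, p = 0.141, adjusted p = 0.469). The width difference averaged −76.7 ± 27 bp in dnTCF4 (SD, n = 3) and −23.9 ± 92.4 bp in control libraries (SD, n = 4), with p = 0.486 and adjusted p = 0.607 between the groups (exact permutation test).

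Merged desert regions had a median width of 441 bp, with quartiles of 267 and 795 bp, against 566 bp for other short regions. They lay a median of 169.8 kb from the nearest protein-coding gene, and the most remote lay 1804 kb from Cntnap5a, a neuronal cell adhesion gene. The next marked region was a median of 2.59 kb away, against 1.51 kb for other short regions. A marked region within 5 kb was present for 65.4% of desert regions and 80.2% of other short regions. These distances run to the next region of any kind and size.

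Most desert regions came from 1 library. Control 3 alone marked 2516 of them (72.4%), a rule that 52.6% of all merged regions and 54.0% of other short regions met. Without control 3 there were 1053 desert regions. At least 2 libraries marked 628 (18.1%), against 35.4% of all regions and 34.4% of other short regions. At least 3 libraries marked 200 (5.76%; all regions 16.4%, other short 15.1%), at least 4 marked 34 (0.979%; all regions 5.73%, other short 4.03%), and at least 5 marked 9 (0.259%; all regions 2.03%, other short 1.13%). The count of 200 was 37 without dnTCF4 1, 41 without control 3 and 41 without control 4. Desert regions in 1 library had a median width of 378 bp, those in 2 libraries 863 bp and those in 3 libraries 1712 bp. The 34 in at least 4 libraries had a median of 1264 bp, so the rise did not continue. A merged region spans the peaks of all its libraries, so width and number of libraries are tied by construction.

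The lower recurrence was seen within each of the long lists, but did not pass the test over libraries. Of the desert regions of dnTCF4 1, 73.3% had a peak in another library (95% Wilson interval 69.4 to 76.9%), against 79.7% of its other short regions. The shares were 97.5% and 97.3% in dnTCF4 3, and 96.4% and 98.9% in dnTCF4 4. In control 3 they were 19.5% (18.2 to 20.9%) and 38.1%, and in control 4 they were 69.9% (66.2 to 73.3%) and 82.7%. All desert regions of control 1 and 2 recurred, 2 and 5 in number. The mean difference was −5.52 percentage points, above 0 in 2 of 7 libraries (exact sign-flip test, p = 0.125, adjusted p = 0.469). The difference averaged −2.84 ± 3.31 points in dnTCF4 (SD, n = 3) and −7.53 ± 9.74 points in control libraries (SD, n = 4), and the groups did not separate (exact permutation test, p = 0.486, adjusted p = 0.607).

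**Figure D2:**
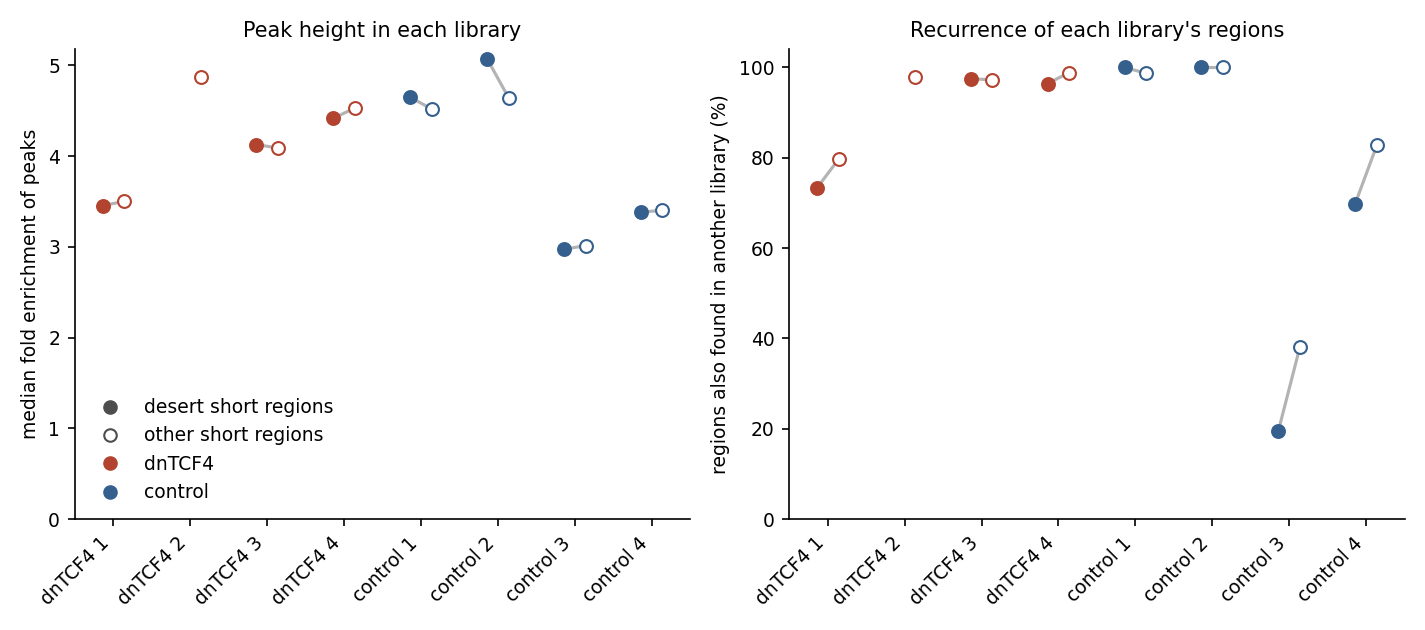
Median fold enrichment (left) and percentage of regions also marked in another library (right) for desert regions (filled) and other short regions (open) of each library. Fold enrichment differed little within a library, 3.45 and 3.50 in dnTCF4 1, while recurrence was lower in deserts in dnTCF4 1, control 3 and control 4. dnTCF4 2 has no desert region.

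dnTCF4 1 and control 4 have lists of like length and allow a closer look. They marked 521 and 627 desert regions and shared 196 of them, 37.6% of the regions of dnTCF4 1 and 31.3% of the regions of control 4. Of their other short regions they shared 48.2% and 50.8%. Control 3 held 367 (70.4%) of the dnTCF4 1 desert regions and 422 (67.3%) of the control 4 ones. Regions that a list did not share were somewhat weaker and narrower. In dnTCF4 1 the 139 peaks in unshared desert regions had a median fold of 3.40 and a median width of 262 bp, against 3.47 and 391 bp for its 415 shared peaks. In control 3 the 2516 unshared peaks had a median fold of 2.95 and a width of 404 bp, against 3.09 and 883 bp for 620 shared peaks. In control 4 the 189 unshared peaks had 3.35 and 266 bp, against 3.40 and 440.5 bp for 458 shared peaks.

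Marks in a single group followed the long lists. Of the desert regions, 143 (4.12%) had a peak in dnTCF4 libraries only, against 6.31% of all regions and 6.58% of other short regions. Control libraries only held 2940 (84.6%), against 68.3% of all regions and 68.1% of other short regions. At least 1 library of each group marked 391 (11.3%), against 25.4% of all regions and 25.3% of other short regions. That count was 53 without dnTCF4 1 and 217 without control 3. At least 2 dnTCF4 and 0 control libraries marked 2 desert regions (0.0576%; all regions 0.216%, other short 0.116%). At least 2 control and 0 dnTCF4 libraries marked 235 (6.76%; all regions 9.84%, other short 9.01%), and all 235 had the same pair, control 3 and control 4. Without dnTCF4 1 this count was 387, and it was 0 without control 3 or without control 4. Fisher's exact test over 4 and 4 libraries, adjusted over all 61441 regions, called 0 desert regions and 0 regions in all. At an unadjusted p under 0.05 it called 0 desert regions and 1 region, a short one near a gene (0.00163% of all regions, 0.00323% of other short regions). No desert region had an unadjusted p below 0.429.

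The desert regions that leaned most towards dnTCF4 were short and mostly lay in 1 desert. A 297 bp region between Spata18 and Usp46, a deubiquitinase gene (chr5:73851384-73851680), had a fold enrichment of 5.46 in dnTCF4 1 and 5.87 in dnTCF4 4 and no peak in any control library. A 308 bp region between Mn1 and Cryba4 (chr5:112003562-112003869) had 3.26 in dnTCF4 1 and 4.45 in dnTCF4 4, and no control peak. These are the 2 regions counted above, and each had an exact Fisher p = 0.429 with an adjusted p of 1. A region in the same desert (chr5:111696208-111696542) had 4.48, 4.87 and 4.73 in dnTCF4 1, 3 and 4, against 3.83 in control 3 alone. Another there (chr5:112133159-112133459) had 3.45, 3.96 and 4.21 in dnTCF4 1, 3 and 4, against 4.24 in control 4 alone. Between Septin9, a cytoskeletal GTP-binding gene, and Tnrc6c, of the microRNA silencing machinery, a region (chr11:117542658-117542984) had 5.08, 4.01 and 3.28 in dnTCF4 1, 3 and 4, against 3.14 in control 3 alone. Fold values are each list's own and are set side by side without a test.

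The regions that leaned most towards control had peaks in control 3 and control 4 and in no dnTCF4 library. Between Bet1 and Col1a2, the gene of a type I collagen chain, a region of 1446 bp (chr6:4195997-4197442) had folds of 3.68 and 4.78 in control 3 and 4. A region in the long non-coding gene Mir100hg, the host transcript of a microRNA cluster (chr9:41396908-41397243), had 3.88 and 3.48. A region between the Iroquois homeobox genes Irx2 and Irx4 (chr13:72878505-72879597) had 3.41 and 3.75, and one between the dehydrogenase genes Dhrs2 and Dhrs4 (chr14:55369057-55370003) had 3.48 and 3.56. One in the desert between Sall3, a zinc finger factor, and Galr1, a galanin receptor, had 3.95 and 4.65. Further along Mir100hg, a second region (chr9:41402241-41403531) had peaks in both groups, with 3.45 in dnTCF4 1 and 4.13 in dnTCF4 3, against 3.16 in control 3 and 3.36 in control 4. These fold values too are each list's own and carry no test.

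Where desert regions lay was uneven. The 13 chromosomes hold 956 deserts, here the gaps left after 100 kb on each side of every protein-coding gene, and 405 (42.4%) had at least 1 desert region. A set of 55 deserts, 5.75% of the number and 7.90% of the length, held 50% of the regions. Of 136 deserts of 1 Mb or more, 75 had none. The longest of these was the 4342 kb desert between Pcdh20 and Pcdh9, followed by 4220 kb between Olfm4 and Pcdh17 and 4078 kb between Cntnap5b and Cdh20. Deserts with a region had a median length of 294.8 kb, and those without 192.9 kb.

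The 5 deserts with the most regions held 373 (10.7%) of them in 0.641% of the desert length, and 39 of the 200 regions marked in at least 3 libraries. Of the 5, 4 are described here. The desert between Col8a1, a collagen VIII chain gene, and Dcbld2, a membrane receptor gene, held 90, with 13 in at least 3 libraries. That desert was densely covered, with 19.5% of its 453.8 kb in desert regions and 3 further regions of 5 kb or more. The desert between AW209491 and Gli3, a Hedgehog pathway factor, held 69, but 1 in at least 3 libraries. The desert between Mn1, a transcriptional co-regulator gene, and Cryba4, a lens crystallin gene, held 63, with 13 in at least 3 libraries. The desert between Kif2a, a kinesin gene, and Zswim6 held 50, with 5 in at least 3 libraries.

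**Figure D3:**
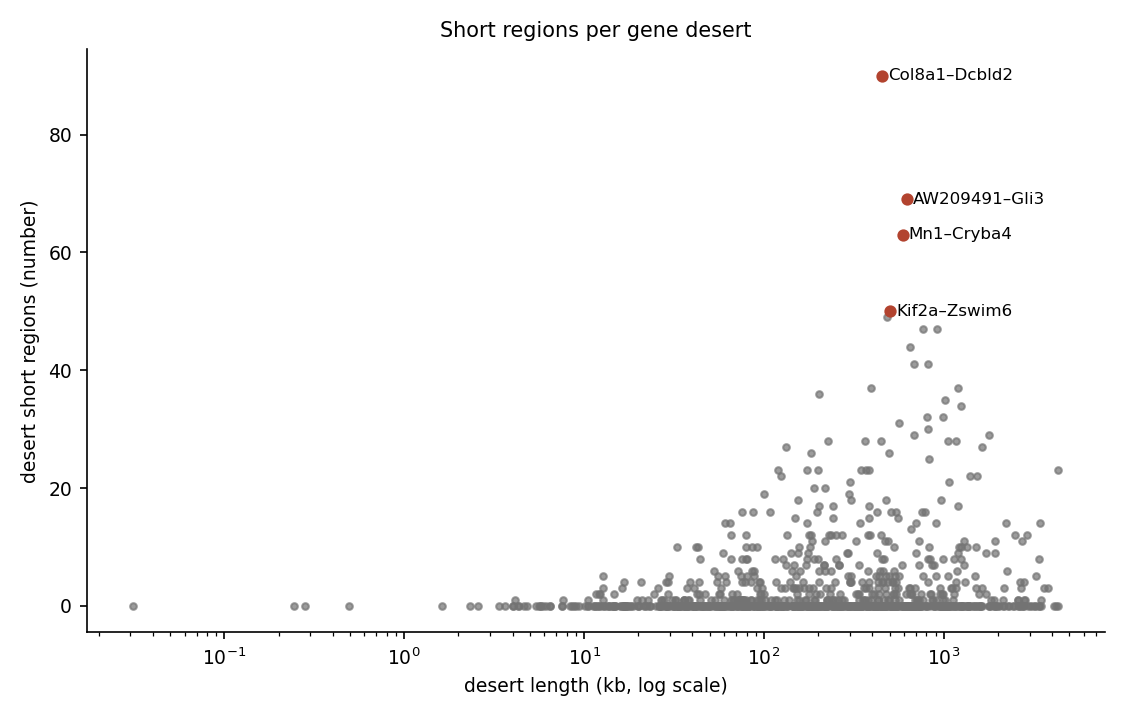
Number of desert regions in the deserts against desert length in kb on a log scale, with 1 point for each desert and 1 desert left out. The 4 named deserts hold 90, 69, 63 and 50 regions, while many deserts of equal or greater length hold none.

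The desert between Mn1 and Cryba4 stood out in the short lists. It makes up 0.124% of the desert length and held 1.81% of the desert regions. It held 23 of 521 desert regions (4.41%) in dnTCF4 1, 8 of 40 (20%) in dnTCF4 3 and 9 of 28 (32.1%) in dnTCF4 4. It held 2 of 2 in control 1, 3 of 5 in control 2, 53 of 3126 (1.70%) in control 3 and 19 of 627 (3.03%) in control 4. Of the 34 desert regions marked in at least 4 libraries, 7 lay there, and no other desert had more than 3. Its regions were narrow, with a median width of 370 bp, against 754 bp in the desert between Col8a1 and Dcbld2. Those in at least 3 libraries had a median of 441 bp. The desert was chosen by its number of regions and its counts by library are a description. Copy number and mapping of this stretch were not tested.

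In most libraries the median height of peaks there was close to that of the library's other desert peaks. The median fold was 3.54 in dnTCF4 1, against 3.45 for its other desert peaks, 4.05 against 4.13 in dnTCF4 3, and 4.41 against 4.43 in dnTCF4 4. It was 4.93 against 6.15 in control 2, with 3 and 2 regions, 2.98 against 2.97 in control 3 and 3.51 against 3.38 in control 4. Control 2 was thus lower there, and control 1 had no other desert peak. The regions formed clusters along the 589.5 kb. From 180.6 to 348.2 kb from the Mn1 side, control 3 had 1 region and no other library had any, while 21 regions lay before this stretch and 41 after it. The 100 kb flanks next to the genes held 16 short regions on the Mn1 side and 19 on the Cryba4 side, so marking went on up to the limit of 100 kb.

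**Figure D4:**
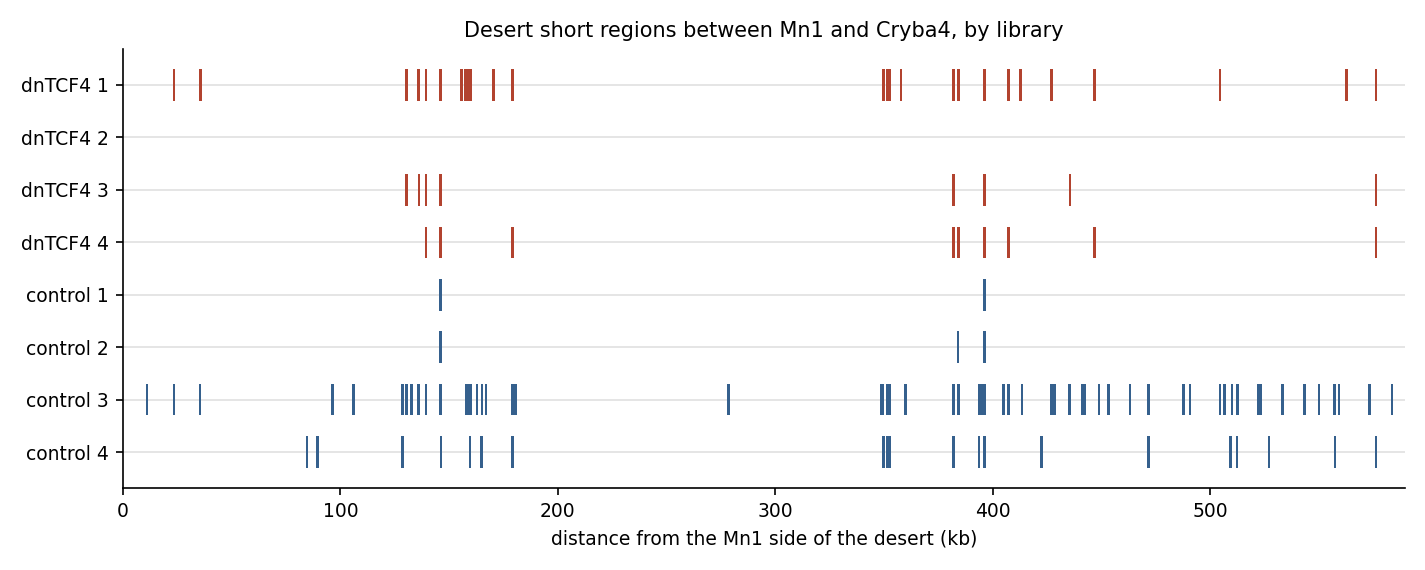
Peaks in the 63 desert regions between Mn1 and Cryba4, with 1 row for each library and bars drawn at least 1.2 kb wide. The horizontal axis is the distance in kb from the Mn1 side of the desert. Bars of dnTCF4 1, 3 and 4 stand in the same clusters as those of control 3 and 4, and the stretch from 180.6 to 348.2 kb has 1 region.

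Both desert regions marked in 7 libraries, every one except dnTCF4 2, lay in this desert. The first (chr5:111952891-111953538) lies 293.0 kb from Cryba4. Its fold enrichment was 4.53, 4.81 and 5.44 in dnTCF4 1, 3 and 4, against 5.15, 4.88, 3.75 and 4.49 in control 1 to 4. The second (chr5:111702567-111703928) lies 245.5 kb from Mn1. Its fold enrichment was 3.42, 3.78 and 3.62 in dnTCF4 1, 3 and 4, against 4.15, 5.07, 3.95 and 2.76 in control 1 to 4. In both regions the values of the groups overlapped.

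Of the 7 regions marked in 5 libraries, 6 are described here. The one that ranked highest by −log10 q within its lists lay between Map3k1, a MAP kinase pathway gene, and Ankrd55 (chr13:112151487-112152794), with folds of 6.63, 5.28 and 5.35 in dnTCF4 1, 3 and 4, against 4.34 and 4.84 in control 3 and 4. The dnTCF4 values lay above the control values. The median fold over all desert peaks was also lower in control 3 and 4 than in dnTCF4 1, 3 and 4, as given above, and the lists are not on a common scale.

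A region in the long non-coding gene Gm33201 (chr6:99969648-99970173) lies between Prok2, a secreted prokineticin gene, and Rybp, a subunit gene of variant Polycomb repressive complex 1. It had 2.93 in dnTCF4 1 and 5.14 in dnTCF4 4, against 7.23, 3.55 and 2.92 in control 2, 3 and 4. A region 160.3 kb from Emx2, a homeobox gene (chr19:59625648-59628250), had 3.55 in dnTCF4 1 and 5.04 in dnTCF4 4, against 5.08, 3.81 and 2.72 in control 2, 3 and 4. The values of both groups overlapped in these 2 regions, the only ones of the 6 with a peak in control 2.

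The remaining 3 had peaks in dnTCF4 1, 3 and 4 and in control 3 and 4. A region in the long non-coding gene Gm31431 (chr16:78052018-78054025), between Usp25 and the adhesion receptor gene Cxadr, had 3.63, 4.46 and 4.26 in the dnTCF4 libraries, against 3.15 and 3.60 in the control libraries. A region in Gm36794 in the desert between Mn1 and Cryba4 (chr5:111938719-111939159) had 3.38, 3.62 and 4.36, against 2.87 and 3.91. A region between Col8a1 and Dcbld2 (chr16:58141313-58142641) had 3.39, 4.04 and 4.43, against 3.18 and 3.04. The groups overlapped in the Gm36794 region, but not in the Gm31431 region or the one between Col8a1 and Dcbld2. The limit given for the Map3k1 region applies here too. Control 3 and 4 had lower median folds over all desert peaks than dnTCF4 1, 3 and 4, and the lists are not on a common scale. The tenth region by the same order lay between Adamts16, a secreted protease gene, and Irx1 (chr13:70975713-70976160) and was marked in 4 libraries, with 4.62 in dnTCF4 1 and 4.8 in dnTCF4 4, against 2.53 in control 3 and 3.42 in control 4.

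Non-coding genes covered a part of the desert regions close to their part of the deserts. Of the desert regions, 525 (15.1%) overlapped a non-coding gene or pseudogene by at least 1 base, 481 of them a long non-coding RNA gene and 37 a pseudogene. Such genes take up 12.2% of the desert length, and a region of some width touches a gene more often than a single base does. The share was 15.0% in dnTCF4 1, 15.0% in dnTCF4 3 and 21.4% in dnTCF4 4, and 15.2% in control 3 and 14.4% in control 4. It was 13.9% for regions in at least 2 libraries and 15.4% for regions in 1.

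Besides Gm33201, Gm31431, Gm36794, Mir100hg and 1700063O14Rik, the regions in non-coding genes with the most libraries were these. In E130006D01Rik (chr5:111736093-111736439), between Mn1 and Cryba4, folds were 4.19 in dnTCF4 1 and 5.12 in dnTCF4 4, against 2.57 in control 3 and 3.51 in control 4. A second region in Gm36794 (chr5:111941012-111941390) had 2.65 in dnTCF4 1 and 4.41 in dnTCF4 4, against 4.93 in control 2 and 3.49 in control 3. In Gm36855 (chr9:43513529-43516557), between Trim29 and the adhesion gene Nectin1, folds were 3.89 in dnTCF4 1 and 4.64 in dnTCF4 3, against 3.17 in control 3 and 3.79 in control 4. In 4930448I06Rik (chr1:41172843-41174922), between Tmem182 and the transcription factor gene Pou3f3, the fold was 4.18 in dnTCF4 1, against 4.28 in control 3 and 2.96 in control 4. In Gm34418 (chr11:117481183-117482040) it was 3.58 in dnTCF4 1, against 3.28 in control 3 and 3.20 in control 4. Each had a peak in both groups. In E130006D01Rik, Gm36855 and Gm34418 the dnTCF4 values lay above the control values. The median fold over all desert peaks was also lower in control 3 and 4 than in dnTCF4 1, 3 and 4. The lists are not on a common scale, and these differences were not tested.

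The class of the nearest protein-coding gene differed between desert regions and the deserts as a whole. Developmental transcription factors, the classic targets of Polycomb, were taken as a list of gene families chosen by symbol. It held Hox, Pax, Sox, Fox, Tbx, Lhx, Nkx, Irx, Gata and Pou genes among others, but not Emx, En, Sall or Gli genes. Genes of this list were nearest to 169 desert regions (4.86%) and to 3.50% of the desert length. By library, they were nearest to 20 regions in dnTCF4 1 (3.84%), 1 in dnTCF4 3 and 0 in dnTCF4 4, and to 152 in control 3 (4.86%) and 25 in control 4 (3.99%). Of 68 deserts flanked by such a gene, 39 (57.4%) had a desert region, against 42.4% of all deserts. These sets were not matched for length, and deserts with a region were longer (median 294.8 kb, against 192.9 kb without). A preference for such genes was not tested. The zinc finger factor gene Tshz1 was nearest to 23 regions, Nkx6-1, a homeobox gene of pancreas and spinal cord, to 18, and Irx1 to 15. Gata6, Msx2 and Pax3 were nearest to 11 each. Of the 169 regions, 7 were marked in at least 3 libraries, 3.50% of the 200 such regions, which equals their share of the length. This partial list did not stand out among recurrent regions.

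Few desert regions had an adhesion gene of the cadherin or synaptic lists as their nearest gene. Cadherin and protocadherin genes, which mediate contacts between cells, were nearest to 0 desert regions and to 4.60% of the desert length. Only 2 of the 19 deserts that they flank held any. Synaptic and axon adhesion genes were nearest to 5 regions (0.144%) and to 4.45% of the length, with 4 regions nearest to the ephrin receptor gene Epha4 and 1 to Tenm4, all in control 3 alone. Of the 33 deserts flanked by a gene of that list, 10 (30.3%) held a desert region, most of which lay nearer to the gene on the other side. Chemosensory receptor genes were nearest to 6 regions (0.173%) and to 1.01% of the length. Ribosomal protein genes were nearest to 26 regions (0.748%) and to 0.214% of the length, 16 of them nearest to Rps24 and 8 to Rplp1. Regions of 1 desert share their neighbours, so these shares carry no test. Long deserts weigh more in the length than in the number of deserts.

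**Figure D5:**
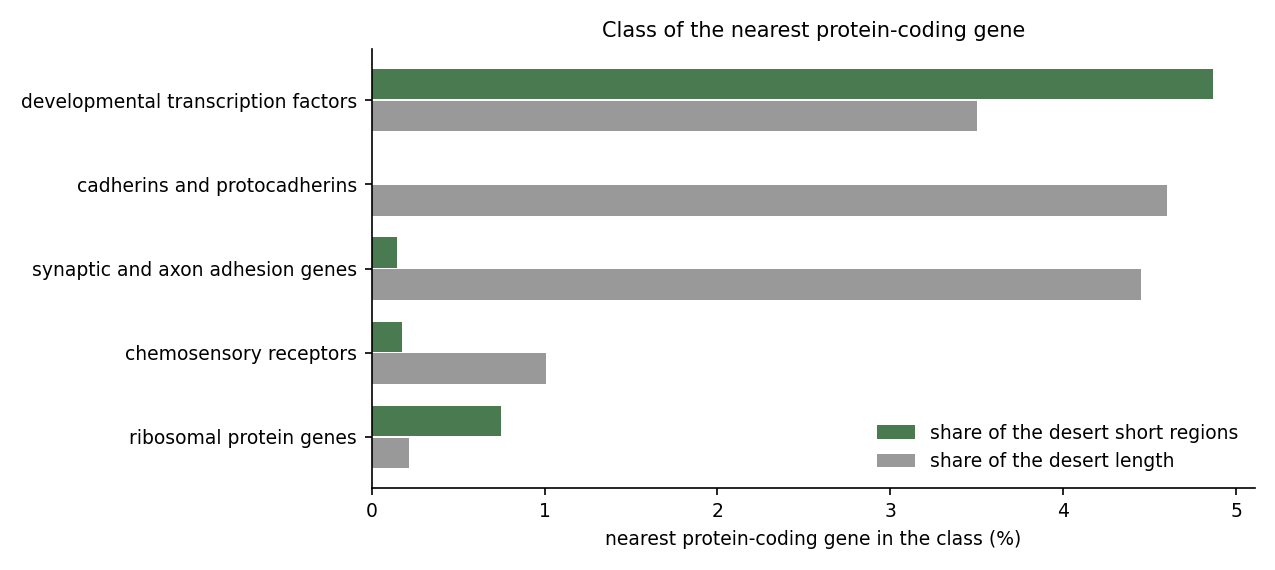
Percentage of the 3474 desert regions (upper bar of each pair) and of the desert length (lower bar) whose nearest protein-coding gene belongs to each class. The listed developmental transcription factors account for 4.86% of regions and 3.50% of length, and cadherins and protocadherins for 0 and 4.60%.

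Chromosomes differed in how densely their deserts were marked. Desert regions numbered 17.3 per Mb of desert on chromosome 19, 13.6 on chromosome 13 and 12.5 on chromosome 16, but 2.17 on chromosome 14 and 1.84 on chromosome 4. Other short regions numbered 49.8 per Mb on chromosome 19, 27.2 on 13, 34.7 on 16, 13.1 on 14 and 14.5 on 4, so both densities were high on 19 and low on 14 and 4. On chromosome 13 a larger part of the short regions lay in deserts, 16.9%, than on any of the other chromosomes used. The share was lowest on chromosome 4, at 5.21%. Counts by library followed these densities only in part. On chromosome 3 there were 16 desert regions in dnTCF4 1, against 371 in control 3 and 63 in control 4. On chromosome 16 there were 85 in dnTCF4 1, against 342 in control 3 and 85 in control 4.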

How the data were processed

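H3K27me3 was measured by chromatin immunoprecipitation and tagmentation in 8 libraries, and 8 IgG libraries were not analysed here. Per the submitters' processing notes, MACS2 2.1.2, Bowtie2 2.3.4.1, bedtools 2.28.0, SAMtools 1.2, Picard 2.20.2, cutadapt and Trim Galore were used on build mm10, with options and any use of IgG not given in the sources used here. For each library, the authors deposited 1 peak list, so peaks were called per library. The deposited columns hold a score, a fold enrichment ratio, and −log10 p-value and −log10 q-value per peak, with a lowest −log10 q of 1.01. Tests used them only within a list, and fold values of named regions are set side by side across lists without a test. No list holds reads, so depth is unknown.

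Peaks were merged in Python 3.11.15 with pandas 2.3.3 and placed against the RefSeq gene table of GRCm38.p6, the same build, with 21631 protein-coding genes. A region was marked in a library when a peak overlapped it by at least 1 base. Tests were two-sided and exact, each adjusted by the Benjamini-Hochberg method. Permutations of 8 libraries, or of 7 where dnTCF4 2 drops out, served for group differences. Sign flips over libraries served for desert minus other short regions, and Fisher's test for single regions. Merging, marking and the fold difference were checked on simulated regions. As dnTCF4 2 has no desert region, log10(number + 1) was used instead of log10(number), and 0.5 was added to observed counts in the log2 ratio. CpG ratios are the number of CG times length over the product of C and G counts. Named regions were the 10 in the most libraries, the 5 leaning most to each group, the 5 deserts with the most regions and the 10 in non-coding genes with the most libraries, ties going to the higher rank of −log10 q. One desert and its regions are not reported here. The members, the lists and these rules were chosen with earlier results of these data known. Alternatives changed the q threshold, merging, overlap, size, distance, list length, a stretch of chromosome 9 left out and each library in turn.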

Additional observations from a re-analysis of the deposited data

Results flagged for a closer look

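The number of desert regions in dnTCF4 1, 521, stood far from the other 3 dnTCF4 libraries, which had 0, 40 and 28. Its gap to the next library made up most of the range of that group, more than chance usually allows for 4 values, and chance flags about 1 in 20 groups. On the log10 scale used in the test it did not stand apart, and dnTCF4 1 also has the longest list of its group, 21492 peaks.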

How the results depend on the processing

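No alternative gave an adjusted p under 0.05 in any test. Under all 17 alternatives the desert share stayed below the share of the length, with mean log2 ratios of −3.29 to −1.50 and adjusted p of 0.0781 to 0.3125, and desert peaks stayed narrower (−155.6 to −22.4 bp, adjusted p 0.156 to 0.729) and less recurrent (−7.98 to −3.09 points, adjusted p 0.208 to 0.743). The group difference in desert share was below 0 under all of them (−4.12 to −0.549 points). Its p reached the smallest possible, 0.0286, at 200 kb (adjusted p 0.0952), as did the p of the log2 ratio between groups at 200 kb (−1.01, adjusted p 0.0952) and at a −log10 q of at least 2 (−0.59, adjusted p 0.143).

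Some directions did not hold, and the cause was not tested. The log2 fold of desert against other short peaks was −0.0010 with regions under 2 kb, −0.013 at 50 kb and −0.014 with lists of at least 1000 peaks, and ran from −0.0065 to 0.021 with 1 library left out. The group difference in number of regions ran from −0.91 to 0.095. The group difference in recurrence was −1.81 at a −log10 q of at least 2 and ran from −0.44 to 7.63 with 1 library left out. The group difference in width was 14 bp at 50 kb, 0.25 bp at 200 kb, 94 bp with lists of equal length and 15.6 bp with lists of at least 1000 peaks.

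Regions with a peak in 2 or more control and 0 dnTCF4 libraries numbered 17 at a −log10 q of at least 2, 135 where a peak had to cover 50% of the region, 566 at 50 kb, 79 at 200 kb and 4 with lists of equal length, and 0 to 387 with 1 library left out. Those in 2 or more dnTCF4 and 0 control libraries numbered 1 at that q, 1 with peaks merged within 1000 bp, 9 at 50 kb, 1 at 200 kb and 7 with lists of equal length, and 0 to 11 with 1 library left out. All desert regions numbered 310 at that q, 6874 at 50 kb, 1371 at 200 kb and 110 with lists of equal length.

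Correlations were taken of the libraries' deviations, not of their own values. For same-numbered libraries they were −0.0512, 0.113, 0.102 and −0.207 for numbers 1 to 4. Those of differently numbered libraries ran from −0.320 to 0.255. As these ranges overlap, the values cannot show whether same-numbered libraries were prepared together. With the replicate block the group difference in number was −0.44 (exact sign-flip test, p = 0.75) and in desert share −2.30 points (p = 0.375), and no call changed. Depth is unknown, and 4 against 4 libraries cannot call a single region after adjustment.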

Other observations

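One annotated microRNA gene overlapped a desert region. Mir466k lies on chromosome 3, and its region (chr3:85467157-85467475) had a fold enrichment of 3.19 in control 3 and no peak in the other libraries. The mature sequence from RefSeq (GRCm38.p6), with the seed in capitals, is rich in repeats of U and G.
mmu-miR-466k: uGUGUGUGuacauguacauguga

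The core of the TCF/LEF motif, TCAAAG on either strand, was present in 6 of the 22 promoter windows in desert regions (27.3%) and in 306 of all 1367 non-coding promoter windows in deserts (22.4%). A match is a description and not a binding site. Further deserts with a dense mark were short ones. The 75.3 kb desert between Rtp4 and Sst, the somatostatin gene, had 33.5% of its length in desert regions, 8 of its 16 regions being marked in at least 3 libraries. The 99.7 kb desert between Sh3bp4 and Agap1 had 19.4% of its length covered, with 5 of 19 regions in at least 3 libraries. The desert between Trim29 and Nectin1 held 23 regions, with peaks in 9 in dnTCF4 1, 4 in dnTCF4 3, 20 in control 3 and 7 in control 4, and 3 of them were marked in at least 4 libraries.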
